A study of Mus musculus with 9 samples.

Results

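Guanylate-binding proteins (GBPs) and immunity-related GTPases (IRGs) were examined in RNA from mouse cortex. The set was chosen by symbol and held 10 genes of the 34714 in the deposited count table: the GBP genes Gbp2, Gbp3, Gbp4, Gbp5, Gbp6 and Gbp7, and the IRG genes Irgm1, Irgm2, Igtp and Iigp1. All 10 were found, and all 10 had enough counts to be among the 18644 genes tested. The study has 3 groups of 3 libraries. The first is mice with EAE (experimental autoimmune encephalomyelitis, in which the animal's own immune cells attack myelin, as in multiple sclerosis) given Au18(L-NIBC)14, a gold nanocluster carrying N-isobutyryl-L-cysteine, called treated EAE here. The second is EAE mice without that compound, and the third is naive mice. The sources used here do not give the strain, sex or age of the mice, how EAE was induced, or the dose and its timing.

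GBPs are large GTPases of the dynamin superfamily. In mouse cells they assemble on vacuoles that hold parasites or bacteria, and they take part in inflammasome activation. IRGs are smaller GTPases that do related work and were largely lost in the human lineage. Both families are barely expressed in most resting cells and are induced strongly by interferon gamma and more weakly by type I interferons. Promoters of interferon-induced genes often hold gamma-activated sequences (GAS) or interferon-stimulated response elements (ISREs), and IRF proteins bind the ISREs. In the brain, microglia, astrocytes, endothelium and infiltrating myeloid cells can all respond to interferon.

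The genes lie in clusters. By RefSeq on GRCm38.p6, Gbp5, Gbp7, Gbp3 and Gbp2 follow one another on chromosome 3, from the start of Gbp5 at 142496934 to the end of Gbp2 at 142638008. Gbp4 lies on chromosome 5 from 105115767 to 105139586, and Gbp6 on the same chromosome from 105270702 to 105295871. Irgm1 is on chromosome 11 from 48865245 to 48871420. Igtp (58199556 to 58207592) and Irgm2 (58214977 to 58222783) are neighbours on that chromosome.

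RefSeq promoter windows, from 250 bases before to 50 bases after a gene's start, were matched for 7 of the 10 genes (Gbp2, Gbp3, Gbp5, Gbp7, Irgm1, Irgm2 and Igtp). They were searched on both strands for the ISRE core, written here as GAAA, any 2 bases and GAAA, and for the GAS sequence TTCNNNGAA. All 7 genes had an ISRE core in a window, against 3.44% of the 32851 promoter windows in the table. A GAS match was present in 4 of them (Gbp5, Gbp7, Irgm2 and Igtp), against 8.30% of all windows. The 7 genes are counted by gene over their 8 windows, while both shares are counted by window. A match is a description of the letters and does not show that a factor binds there. The windows below are those of Igtp and Irgm2, which share a stretch with both motifs, of Gbp2 and Irgm1, whose levels followed that of Igtp most closely, and of Gbp5, whose group means were alike. They are written 5′ to 3′ on the gene's strand, with matches to either motif in capitals and coordinates on GRCm38.p6.
Gbp2, chr3:142620413-142620712, plus strand: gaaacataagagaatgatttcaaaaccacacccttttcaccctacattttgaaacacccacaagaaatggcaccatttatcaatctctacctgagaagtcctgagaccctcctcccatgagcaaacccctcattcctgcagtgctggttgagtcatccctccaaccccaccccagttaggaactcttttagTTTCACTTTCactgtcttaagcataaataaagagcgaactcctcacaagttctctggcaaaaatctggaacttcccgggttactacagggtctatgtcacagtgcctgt
Gbp5, chr3:142496684-142496983, plus strand: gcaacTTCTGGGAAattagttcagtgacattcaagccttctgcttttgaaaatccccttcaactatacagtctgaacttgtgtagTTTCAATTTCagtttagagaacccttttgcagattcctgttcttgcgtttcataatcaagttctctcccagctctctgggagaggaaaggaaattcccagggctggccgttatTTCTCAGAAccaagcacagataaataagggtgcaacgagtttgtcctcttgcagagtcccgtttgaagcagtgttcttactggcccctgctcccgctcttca
Irgm1, chr11:48871371-48871670, minus strand: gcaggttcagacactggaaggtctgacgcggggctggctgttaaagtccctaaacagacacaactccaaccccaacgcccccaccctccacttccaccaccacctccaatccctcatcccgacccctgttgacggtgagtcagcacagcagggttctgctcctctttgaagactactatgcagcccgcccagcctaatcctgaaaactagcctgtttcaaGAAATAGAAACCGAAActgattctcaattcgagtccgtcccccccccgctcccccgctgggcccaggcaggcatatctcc
Irgm2, chr11:58214727-58215026, plus strand: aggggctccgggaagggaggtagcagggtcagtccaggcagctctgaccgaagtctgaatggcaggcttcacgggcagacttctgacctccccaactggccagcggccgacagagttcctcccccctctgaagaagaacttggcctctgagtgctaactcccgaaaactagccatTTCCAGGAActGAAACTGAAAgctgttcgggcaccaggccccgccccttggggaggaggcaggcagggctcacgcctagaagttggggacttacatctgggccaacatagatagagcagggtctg
Igtp, chr11:58199306-58199605, plus strand: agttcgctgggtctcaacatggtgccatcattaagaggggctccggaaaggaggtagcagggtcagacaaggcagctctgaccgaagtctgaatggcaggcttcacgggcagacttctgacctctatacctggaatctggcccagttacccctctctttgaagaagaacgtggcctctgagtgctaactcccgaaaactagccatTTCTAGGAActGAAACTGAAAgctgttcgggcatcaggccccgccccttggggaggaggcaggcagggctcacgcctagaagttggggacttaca

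In Igtp and in Irgm2 a GAS match was followed after 2 bases by an ISRE core. The 21-base stretch that holds both differed between them at 1 base. In Gbp2 the ISRE core began 59 bases before the start. Irgm1 had a pair of overlapping ISRE cores at 30 and 24 bases before its start, and Gbp5 had its ISRE core farther out, at 165 bases, with a GAS match on either side. Of the other windows, Gbp7 had 1 ISRE core and 2 GAS matches. Gbp3 had 2 overlapping ISRE cores at 1 of its 2 annotated starts and no match at the other.

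**Figure D1:**
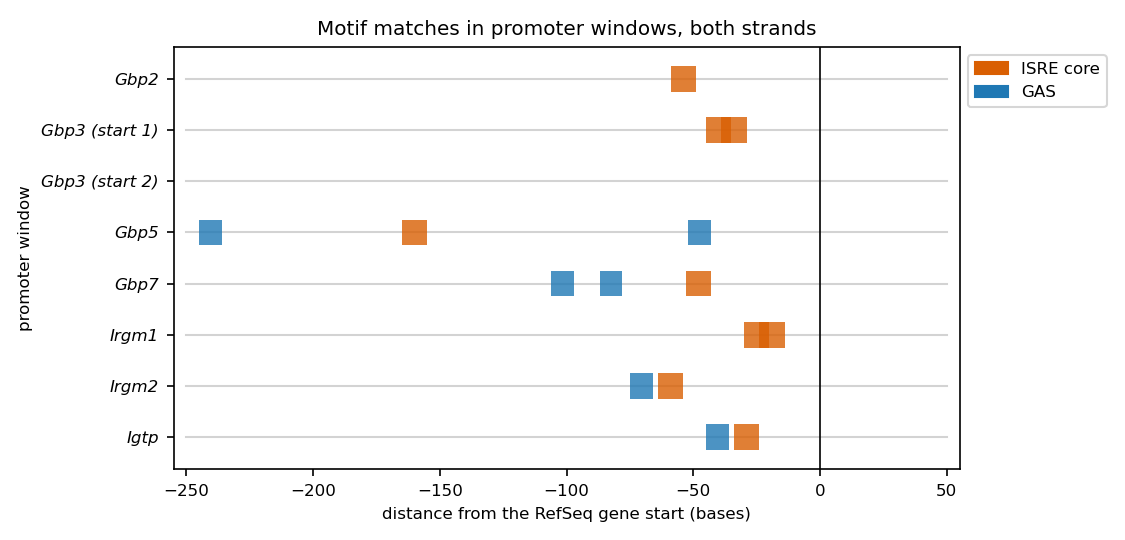
Positions of ISRE core and GAS matches in the promoter windows of 7 genes, as distance in bases from the RefSeq gene start (x axis), with 1 line per window (y axis). Each bar covers one match. The ISRE cores of Gbp2, Gbp3, Gbp7, Irgm1, Irgm2 and Igtp began within 64 bases of the start, and that of Gbp5 began 165 bases before it.

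Total counts per library ran from 26972179 to 45243553, and TMM scaling factors from 0.982 to 1.02. Values are in CPM, counts relative to the library's total after scaling by those factors, and n is 3 libraries a group. Vesicular glutamate transporter 1 (Slc17a7), a marker of cortical excitatory neurons, was between 1152 and 1439 CPM in all 9 libraries. The summed CPM of 4 striatal markers ran from 138 to 955 over the 9 libraries, with both extremes in naive mice. Choroid plexus markers stood out in EAE replicate 1, at a summed 886 CPM against 7.31 to 101 CPM in the other 8. Because the tissue is bulk, fewer cells of a type and less RNA per cell cannot be told apart.

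Levels were compared between genes only per kilobase of exon, with lengths from GENCODE M21, which may not be the annotation behind the counts. In naive cortex all 10 genes were expressed at low level, from 3.81 ± 0.383 CPM per kilobase for Igtp to 0.454 ± 0.112 for Gbp6 (SD). Below Igtp came Gbp3 (3.15 ± 0.422 CPM per kilobase), whose spread met that of Igtp. Then came Gbp2 (2.34 ± 0.412 CPM per kilobase), whose spread met those of Gbp3 and Irgm2. Irgm2 (1.88 ± 0.427), Irgm1 (1.59 ± 0.058), Gbp4 (1.53 ± 0.327) and Gbp7 (1.46 ± 0.0616 CPM per kilobase) did not differ beyond their spread. Gbp5 (0.901 ± 0.221) and Iigp1 (0.645 ± 0.0137 CPM per kilobase) were lower. With the longest transcript as the length, Gbp4 moved up to 2.53 ± 0.540 CPM per kilobase, level with Gbp2 and Irgm1 (2.41 ± 0.088). On that length Gbp3 was at 3.83 ± 0.514, level with Igtp, Gbp5 was at 1.59 ± 0.391, level with Gbp7, and Iigp1 was at 1.20 ± 0.0255 CPM per kilobase. The order below Igtp and Gbp3 thus depends on the length used, except that Gbp6 was lowest on both.

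Setting EAE beside naive cortex asked whether the disease changed these genes. The answer differed between the 3 EAE libraries. EAE replicates 2 and 3 had the 2 highest values of all 9 libraries for 6 of the 10 genes (Gbp2, Gbp6, Gbp7, Irgm1, Igtp and Iigp1), a pattern found in 6.87% of all tested genes. EAE replicate 1 was below all 3 naive libraries for 8 of the 10, which held for 28.1% of all tested genes. Summed over the 10 genes, the EAE libraries had 43.8, 145 and 123 CPM in replicates 1, 2 and 3, against 79.4, 64.3 and 72.9 CPM in naive replicates 1, 2 and 3. The groups thus overlapped, with EAE libraries at both ends.

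No gene of the set passed. With edgeR's quasi-likelihood test and Benjamini-Hochberg adjustment over all genes, 0 of 10 were called, where 0.987% of all tested genes were. At an unadjusted p under 0.05 there were 2 higher (Gbp6 and Irgm1) and 1 lower (Gbp4), against 9.42% higher and 6.97% lower of all tested genes. DESeq2, the tool the authors used, called Gbp6 higher and Gbp4 lower, and it called 5.43% of the genes it adjusted. The authors also asked for a log2 fold change beyond 1 in size, which Gbp6 met and Gbp4 did not. The log2 fold change was above 0 in 8 of the 10, with a median of 0.66, where the median of all tested genes was -0.0051 and 49.0% were above 0.

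Among the GBPs of the set, Gbp6, which belongs to the chromosome 5 cluster, had the largest ratio. It was at 2.56, 14.8 and 13.6 CPM in EAE replicates 1, 2 and 3, against 2.50, 2.16 and 3.45 CPM in naive replicates 1, 2 and 3. EAE replicate 1 lay inside the naive range and the other EAE libraries lay far above it. The means were 10.3 ± 6.73 CPM in EAE and 2.70 ± 0.665 CPM in naive (SD), and the log2 fold change was 1.93 with SE 0.59 (adjusted p = 0.156 by edgeR and 0.00643 by DESeq2). Reads of Gbp6 are hard to assign, since 67.3% of the 75-base words in its GENCODE M21 transcripts also occur in another gene, most of them in Gm43302. Gbp10, of the same cluster but outside the set, was at 0.454, 3.56 and 6.88 CPM in the EAE libraries, against 0.623 to 0.896 CPM in naive. The log2 fold change of Gbp10 was larger than that of Gbp6, at 2.29 (edgeR adjusted p = 0.207).

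Gbp2, which coats parasite vacuoles in interferon-treated mouse cells, was at 3.38, 12.8 and 17.5 CPM in EAE replicates 1, 2 and 3, against 6.82, 4.77 and 6.07 CPM in naive replicates 1, 2 and 3. EAE replicate 1 was the lowest of all 9 libraries. The log2 fold change was 0.93 (SE 0.51, edgeR adjusted p = 0.418). Gbp3 was at 5.06, 19.2 and 11.1 CPM in EAE, against 8.80 to 11.5 CPM in naive, so that only EAE replicate 2 exceeded the naive range. Gbp7, which in mouse macrophages takes part in assembling the NADPH oxidase, was at 5.84, 15.9 and 9.97 CPM in EAE, against 7.89 to 8.58 CPM in naive. The log2 fold change was 0.19 for Gbp3 and 0.36 for Gbp7, with edgeR adjusted p of 0.873 for Gbp3 and 0.612 for Gbp7. Without EAE replicate 2 they were -0.36 for Gbp3 and -0.058 for Gbp7 on the log2 scale. Exons of Gbp7 overlap those of Gm43802 on the same strand, and 11.3% of its 75-base words occur in another gene.

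Gbp5, which promotes assembly of the NLRP3 inflammasome in mouse macrophages, had like means. It was at 2.40, 8.41 and 6.91 CPM in EAE replicates 1, 2 and 3, against 6.68, 4.29 and 6.96 CPM in naive replicates 1, 2 and 3. The log2 fold change was -0.02, and its 95% interval from -1.01 to 0.97 leaves room for about a doubling either way.

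Gbp4 ran the other way. It was at 3.18, 6.92 and 7.40 CPM in EAE replicates 1, 2 and 3, against 13.5, 8.76 and 12.2 CPM in naive replicates 1, 2 and 3. All EAE libraries were below all naive ones, as was so for 11.8% of all tested genes. The means were 5.83 ± 2.31 CPM in EAE and 11.5 ± 2.45 CPM in naive (SD), and the log2 fold change was -0.98 with SE 0.32. By edgeR the adjusted p was 0.170 and by DESeq2 it was 0.0377, which passed. In GENCODE M21 exons of Gbp4 overlap those of Gbp8 and Gbp9 on the same strand, and how the authors' counting split such reads is not stated, so its counts are uncertain.

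The IRG genes divide into regulators and effectors. Irgm1, Irgm2 and Igtp (also named Irgm3) sit on host membranes and hold the effectors in check, and Irgm2 also restrains caspase-11 responses in mouse macrophages. Irgm1 was at 8.76, 22.5 and 18.6 CPM in EAE replicates 1, 2 and 3, against 9.25, 8.87 and 9.55 CPM in naive replicates 1, 2 and 3. Its log2 fold change was 0.85 (SE 0.33, edgeR adjusted p = 0.245). The naive libraries lay close together and the EAE libraries fell on both sides of them.

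Igtp was at 5.48, 17.6 and 16.7 CPM in EAE, against 8.61, 7.33 and 7.20 CPM in naive (log2 fold change 0.78, SE 0.42, edgeR adjusted p = 0.413). Irgm2 was at 5.52, 14.8 and 10.2 CPM in EAE, against 8.49, 7.00 and 5.34 CPM in naive (log2 fold change 0.54, SE 0.38, edgeR adjusted p = 0.537). In both genes EAE replicate 1 stood below or at the low end of the naive range. GENCODE M21 has exons of Igtp and Irgm2 that overlap on the same strand, and 7.80% of the 75-base words of Igtp also occur in Irgm2.

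Iigp1, on chromosome 18, encodes the effector Irga6, which coats and disrupts parasite vacuoles. It was at 1.66, 12.7 and 11.5 CPM in EAE replicates 1, 2 and 3, against 3.84, 3.74 and 3.69 CPM in naive replicates 1, 2 and 3. The naive libraries differed by no more than 1.04 times, and the EAE libraries by 7.70 times. The log2 fold change was 1.20 (SE 0.58, edgeR adjusted p = 0.349).

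**Figure D2:**
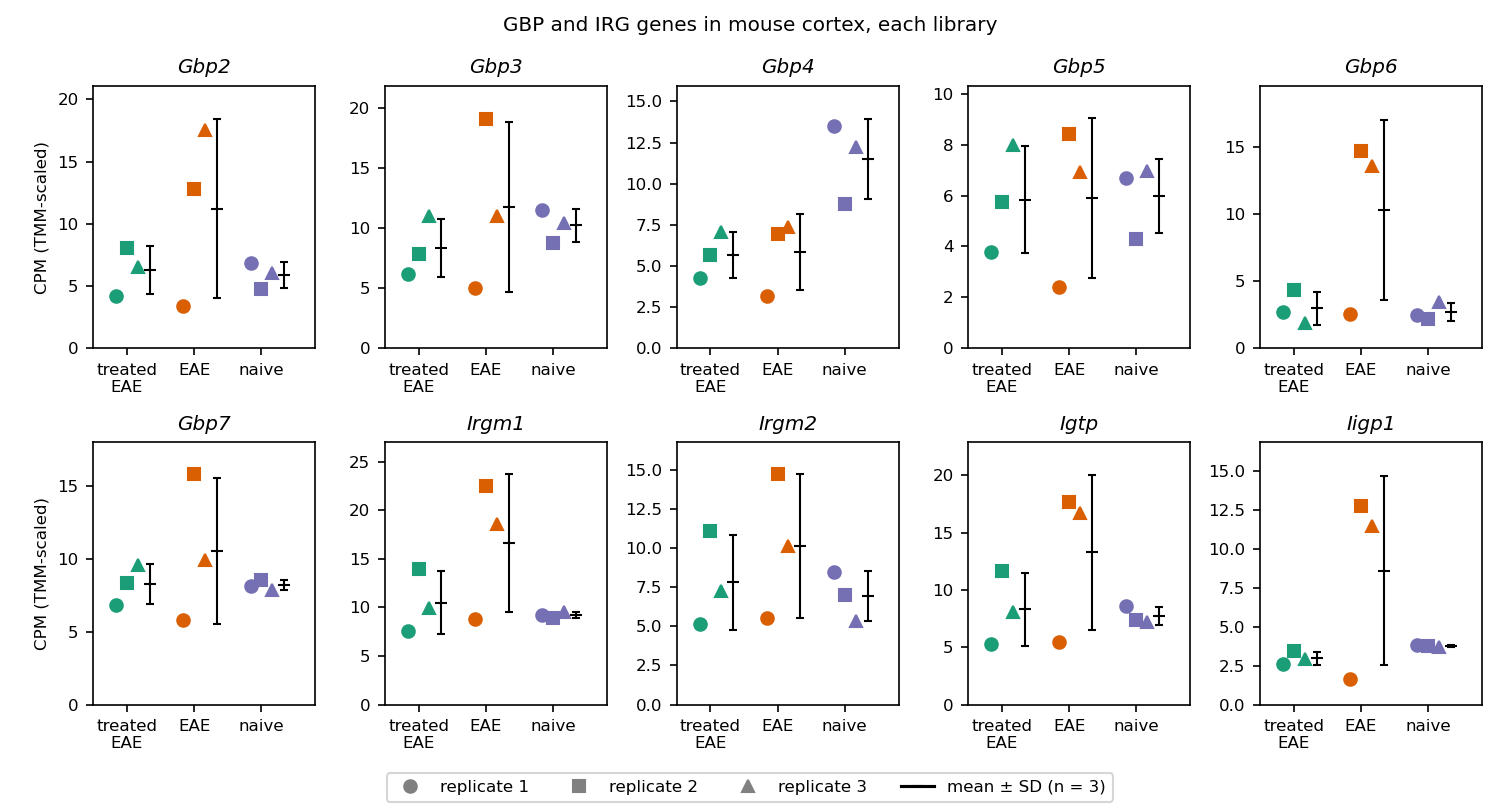
CPM of each gene in each library (y axis), for treated EAE, EAE and naive (x axis), with a symbol per replicate and the mean with SD (n = 3) as a black bar beside each group. EAE replicates 2 and 3 are the 2 highest libraries for Gbp2, Gbp6, Gbp7, Irgm1, Igtp and Iigp1, and for Gbp4 all 3 naive libraries are above the other 6.

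In the edgeR fits, whether a gene passed turned on EAE replicate 1. Without it, edgeR called 3 of the 10 genes higher in EAE than in naive, against 1.24% of all tested genes. These were Gbp6 (log2 fold change 2.40, adjusted p = 0.0127), Irgm1 (1.16, adjusted p = 0.0473) and Iigp1 (1.69, adjusted p = 0.00472). Gbp2 (1.36) had adjusted p = 0.0535 in that fit. Leaving out that library removes the lowest EAE value of these genes, so the fit is no independent check. Without any other single library, 0 of the 10 genes passed.

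The spread within EAE was itself wide. The highest EAE library exceeded the lowest by 2.33 times (Gbp4) to 7.70 times (Iigp1), with a median over the 10 genes of 3.36 times. The same ratio had a median of 1.88 times in treated EAE and 1.37 times in naive. Over the 2199 tested genes whose mean CPM lay in the range of the set (5.12 to 12.1 CPM), the medians were 1.28 times in treated EAE, 1.27 times in EAE and 1.24 times in naive.

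**Figure D3:**
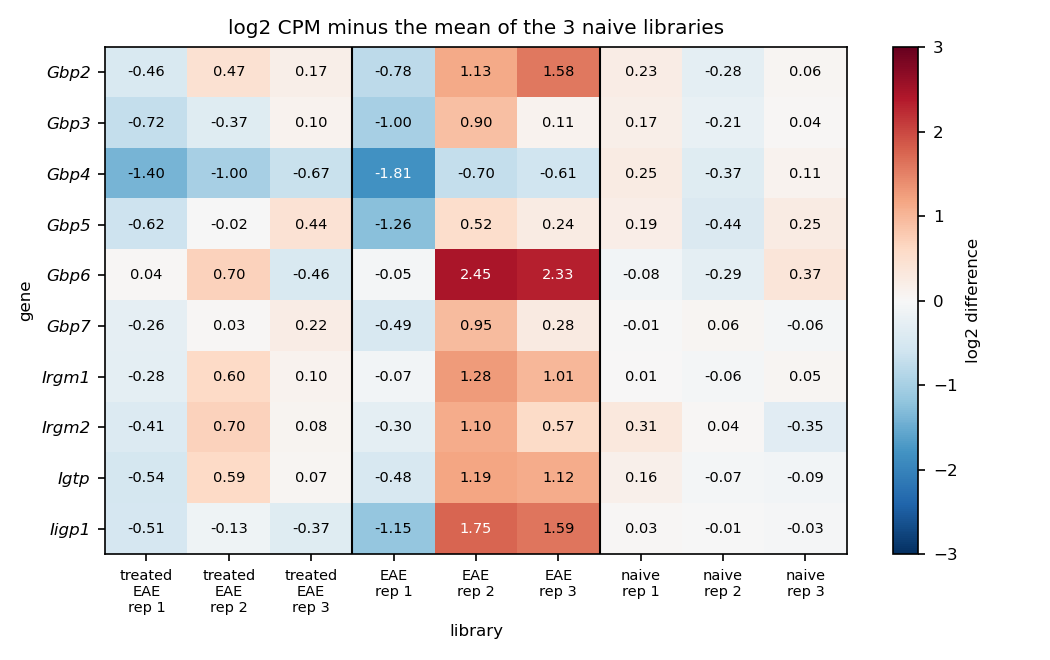
Difference of log2 CPM from the mean of the 3 naive libraries, for each gene (rows) in each library (columns: treated EAE, EAE, naive). Colour and number both give the difference. EAE replicates 2 and 3 reach 2.45 and 2.33 for Gbp6, EAE replicate 1 is at or below -0.049 for every gene shown, and Gbp4 is below 0 in all 6 diseased libraries.

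Setting treated EAE beside EAE asked what the compound changed in diseased mice. All 10 genes had a log2 fold change below 0, with a median of -0.58 (all tested genes 0.0029, with 50.6% above 0). Without EAE replicate 2 the value turned positive for Gbp3 (0.042), Gbp4 (0.089), Gbp5 (0.32) and Gbp7 (0.057). In none did the groups separate, as they did in 9.93% of all tested genes with treated EAE above and 9.28% with it below. None passed: edgeR called 0 of 10, where 0.220% of all tested genes were called, and 2 of the 10 (Gbp6 and Iigp1) were lower at an unadjusted p under 0.05, as were 7.65% of all tested genes. DESeq2 called Gbp6 alone, where it called 3.91% of the genes it adjusted. The EAE libraries serve in both comparisons, so the direction here is not independent of that against naive. Summed over the 10 genes, treated EAE had 48.6, 80.2 and 72.2 CPM in replicates 1, 2 and 3, inside the range of the EAE libraries from 43.8 to 145 CPM.

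Gbp6 was at 2.74, 4.34 and 1.91 CPM in treated EAE replicates 1, 2 and 3, against 2.56, 14.8 and 13.6 CPM in EAE replicates 1, 2 and 3. Treated replicates 1 and 2 were above EAE replicate 1, so that the groups overlapped. The log2 fold change was -1.77 (SE 0.58, edgeR adjusted p = 0.215, DESeq2 adjusted p = 0.020). Iigp1 was at 2.61, 3.44 and 2.90 CPM in treated EAE, against 1.66, 12.7 and 11.5 CPM in EAE, and its log2 fold change was -1.53 with SE 0.58 (adjusted p = 0.270 by edgeR). Here too EAE replicate 1 was the lowest of the 6 libraries.

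Irgm1 was at 7.57, 14.0 and 9.92 CPM in treated EAE, against 8.76, 22.5 and 18.6 CPM in EAE (log2 fold change -0.66, SE 0.33, edgeR adjusted p = 0.381). Igtp was at 5.28, 11.6 and 8.05 CPM in treated EAE, against 5.48, 17.6 and 16.7 CPM in EAE (log2 fold change -0.67, SE 0.42, edgeR adjusted p = 0.506). In both genes treated replicate 1 was the lowest of all 9 libraries and treated replicate 2 was the highest of the treated ones. Gbp2 was at 4.23, 8.06 and 6.54 CPM in treated EAE, against 3.38, 12.8 and 17.5 CPM in EAE, and its log2 fold change was -0.84 with SE 0.50 (adjusted p = 0.490 by edgeR).

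The other 5 genes also overlapped between the groups. Irgm2 was at 5.13, 11.1 and 7.24 CPM in treated EAE, against 5.52, 14.8 and 10.2 CPM in EAE. Gbp3 was at 6.18, 7.87 and 11.0 CPM in treated EAE, against 5.06, 19.2 and 11.1 CPM in EAE. Gbp7 was at 6.84, 8.37 and 9.59 CPM in treated EAE, against 5.84, 15.9 and 9.97 CPM in EAE. In these 3 genes EAE replicate 2 was the highest of the 6 libraries. Gbp5 was at 3.79, 5.76 and 7.97 CPM in treated EAE, against 2.40, 8.41 and 6.91 CPM in EAE. Between libraries of the same number, treated EAE was below EAE in 3 of 3 pairs for Irgm1, Irgm2 and Igtp, in 1 of 3 for Gbp5 and in 2 of 3 for the others. With the replicate block on these 6 libraries, edgeR again called 0 of 10, with adjusted p of 0.194 for Irgm1, 0.263 for Igtp, 0.329 for Irgm2, 0.294 for Gbp6 and 0.393 for Iigp1. At an unadjusted p under 0.05 that fit had Gbp6, Irgm1, Irgm2 and Igtp lower, 4 of 10 against 8.37% of all tested genes. That fit was chosen after seeing the data, and the labels do not say that equal numbers pair the mice.

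Irgm2, Gbp3, Gbp4, Gbp5 and Gbp7 had log2 fold changes, without the block, from -0.50 (Gbp3) to -0.02 (Gbp5), with edgeR adjusted p from 0.632 to 0.990. For Gbp4 the means were 5.66 ± 1.42 CPM in treated EAE and 5.83 ± 2.31 CPM in EAE (SD), with a 95% interval on the log2 scale from -0.77 to 0.68. Without EAE replicate 1, edgeR called Gbp6 (-2.24, adjusted p = 0.0356) and Iigp1 (-2.03, adjusted p = 0.00443) lower in treated EAE than in EAE, 2 of 10 against 0.180% of all tested genes. Without any other single library none passed.

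Treated EAE set beside naive gave values close to each other for most of the set. The median log2 fold change was 0.047 (all tested genes 0.0098), with 6 of 10 above 0, as were 53.6% of all tested genes. Without treated replicate 2 all 6 (Gbp2, Gbp6, Gbp7, Irgm1, Irgm2 and Igtp) turned negative, from -0.014 to -0.23. Both edgeR and DESeq2 called 0 of 10. Over all tested genes edgeR called 0 (0%) and DESeq2 called 3 (0.0109%). At an unadjusted p under 0.05 edgeR had Gbp4 alone, lower, against 0.638% of all tested genes lower. The 95% intervals were wide: for Igtp from -0.86 to 1.07 and for Gbp6 from -1.19 to 1.51, and a doubling lies inside them.

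Gbp4 was at 4.25, 5.64 and 7.09 CPM in treated EAE replicates 1, 2 and 3, against 13.5, 8.76 and 12.2 CPM in naive replicates 1, 2 and 3. The groups did not overlap, and the log2 fold change was -1.03 with SE 0.32 (adjusted p = 1.00 by edgeR). Iigp1 also lay below naive in every treated library, at 2.61 to 3.44 CPM against 3.69 to 3.84 CPM, and its log2 fold change was -0.33 with SE 0.59 (adjusted p = 1.00 by edgeR). These 2 of 10 compare with 2.74% of all tested genes whose treated libraries were all below the naive ones.

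**Figure D4:**
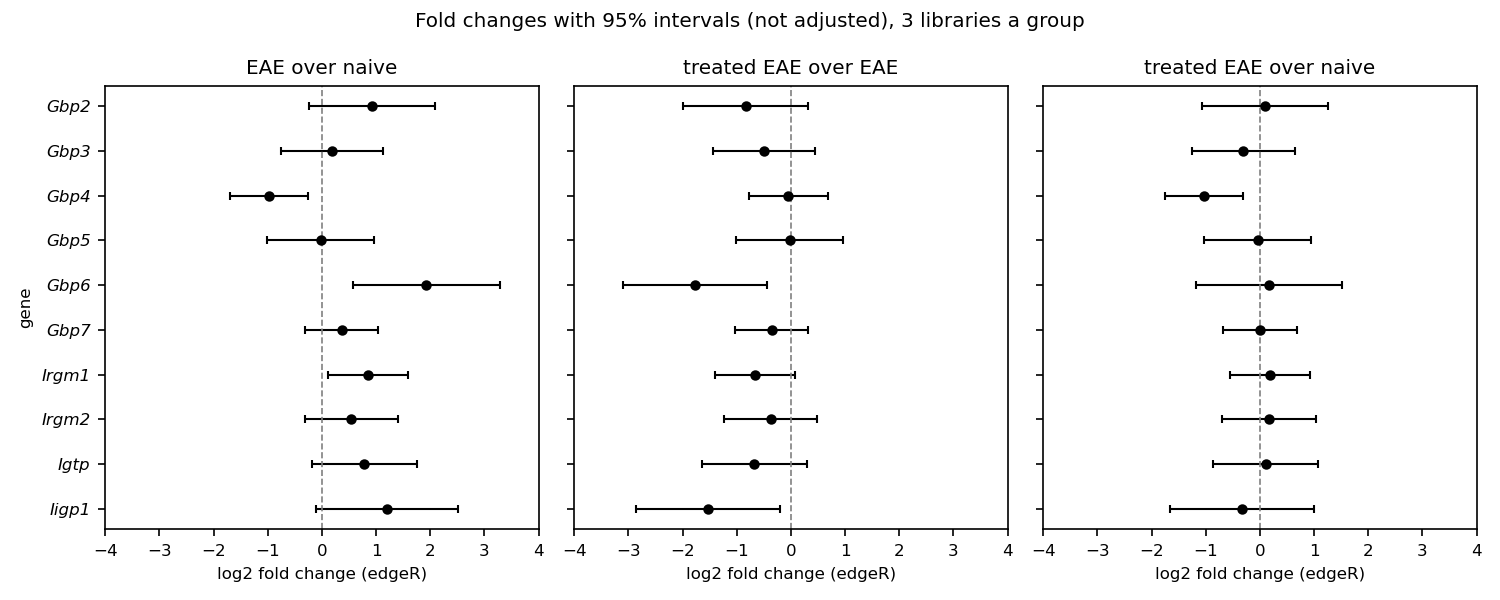
Log2 fold changes (x axis) of the 10 genes (y axis) for EAE over naive, treated EAE over EAE and treated EAE over naive. Points are edgeR estimates and bars are 95% intervals without adjustment for multiple tests. Intervals exclude 0 for Gbp4, Gbp6 and Irgm1 in EAE over naive, for Gbp6 and Iigp1 in treated EAE over EAE, and for Gbp4 in treated EAE over naive, and none of these passed after adjustment.

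Most of the set varied together over the libraries. Outside Gbp4, the Pearson correlation of log2 CPM between 2 genes over the 9 libraries was between 0.44 and 0.97, with Irgm1 and Igtp the closest pair. With Gbp4 it was between 0.012 (Gbp6) and 0.69 (Gbp5). These correlations describe 9 libraries that fall into 3 groups and differ in depth. The 8 other genes closest to the mean profile of the set, among 13798 candidate genes whose mean log2 CPM was not below 0, were the homeobox gene Hhex, Cd274, the ETS factor gene Elk3, the nonclassical MHC class I gene H2-T22, S100a6, which encodes a calcium-binding protein, the nuclear body gene Sp100, the antiviral oligoadenylate synthetase gene Oas1a, and Cd180, which encodes a Toll-like receptor homologue. Their correlation with that profile ran from 0.90 to 0.96. Genes with placeholder symbols, such as Gm with a number or a name ending in Rik, were not among the candidates. Cd274, which encodes the checkpoint ligand PD-L1, was at 2.37, 3.70 and 3.42 CPM in treated EAE, 2.24, 6.60 and 5.49 CPM in EAE and 3.15, 3.37 and 2.72 CPM in naive. It was highest in EAE replicates 2 and 3, a likeness set by its choice for correlation with that profile.

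Of 19 other GTPase genes listed, 14 were tested and 0 were called in any of the 3 comparisons, where edgeR called at most 0.987% of all tested genes. Besides GBP and IRG genes the list holds Gvin1 and Gm4070, very large inducible GTPase genes. Counts of Gvin1 and Gm4070 were close in every library (168 and 156 in EAE replicate 1), and whether they share reads was not tested. Their log2 fold changes in EAE against naive were -0.29 and -0.25. In EAE against naive 10 of the 14 had a log2 fold change above 0 (median 0.90), against 49.0% of all tested genes. At an unadjusted p under 0.05, 7 were higher, against 9.42% of all tested genes. The smallest p was that of F830016B08Rik, at 0.325, 2.43 and 1.53 CPM in EAE against at most 0.207 CPM in naive (log2 fold change 3.14, SE 0.71, edgeR adjusted p = 0.0703). Gm4951 followed, at 0.779, 3.59 and 1.91 CPM in EAE against 0.291 to 0.379 CPM in naive (2.60, SE 0.63, edgeR adjusted p = 0.0835). In both, all 3 EAE libraries were above naive, which held for 4 of the 14, for 0 of the 10 genes of the set and for 12.2% of all tested genes. Gbp10 and 9930111J21Rik2 had log2 fold changes of 2.29 and 1.19 (edgeR adjusted p = 0.207 and 0.186). In treated EAE against EAE 13 of the 14 were below 0 (median -0.73), where 50.6% of all tested genes were above 0.

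Interferon gamma itself was at the limit of detection. Ifng had 2 counts in EAE replicate 1, 2 in EAE replicate 2 and 0 in the other 7 libraries, where 3 counts correspond to between 0.067 and 0.11 CPM. This limit covers counting error only, and it takes each count as a separate fragment, though 1 fragment may have been counted more than once. Its 16 listed receptor and signalling genes were all tested, and 0 were called in any comparison, where edgeR called at most 0.987% of all tested genes. In EAE against naive 13 of the 16 were above 0, with a median of 0.39, against 49.0% of all tested genes. The receptor chain gene Ifngr1 was at 16.2, 23.7 and 17.0 CPM in EAE, against at most 14.5 CPM in naive, without overlap. Its log2 fold change was 0.51 (SE 0.15, edgeR adjusted p = 0.132). EAE lay wholly above naive in 3 of the 16 genes and wholly below in 1, against 12.2% and 11.8% of all tested genes. The feedback inhibitor Socs3 had a log2 fold change of 0.82 (edgeR adjusted p = 0.0775), the transcription factor gene Irf8 0.93 (0.146) and the MHC class I regulator Nlrc5 1.26 (0.286), the adjusted p in parentheses being edgeR's.

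Genes induced by type I interferon had a like order of libraries with a different balance. Their summed CPM (20 genes) was 108, 291 and 163 in EAE replicates 1, 2 and 3, against 116, 116 and 122 in naive replicates 1, 2 and 3, so that EAE replicate 2 exceeded replicate 3 by more than for the GTPase genes. Of these 20 genes, 0 were called in any comparison, where edgeR called at most 0.987% of all tested genes. In EAE against naive 19 were above 0 (median 0.96), against 49.0% of all tested genes. In treated EAE against EAE all 20 were below 0 (median -0.75), where 50.6% of all tested genes were above 0. The same EAE libraries serve in both comparisons. Those with the smallest p in EAE against naive were Ifi27, the tetherin gene Bst2, the transcription factor gene Irf7 and Oasl1. Their log2 fold changes were 0.46, 1.58, 1.56 and 2.27, with edgeR adjusted p from 0.0663 to 0.153. Oasl1 was at low counts, with 6 in each naive library and 8 in EAE replicate 1.

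GBPs reach their target membranes with the help of the ATG8 conjugation system, and in macrophages they act upstream of caspase-11 and gasdermin D. Of 10 ATG8 conjugation genes 0 were called in any comparison, where edgeR called at most 0.987% of all tested genes. Their median log2 fold change in EAE against naive was -0.027. The ATG8 family gene Map1lc3a was at -0.31 (edgeR adjusted p = 0.0864) and the activating enzyme gene Atg7 at -0.24 (edgeR adjusted p = 0.182). Of 8 inflammasome genes linked to GBPs 0 were called in any comparison, against the same share of at most 0.987% of all tested genes. In EAE against naive 7 were above 0, against 49.0% of all tested genes. Gsdmd, the gasdermin D gene, had a log2 fold change of 1.21 (edgeR adjusted p = 0.0812) and the adaptor gene Pycard 1.05 (edgeR adjusted p = 0.129). Casp4, which encodes caspase-11, had 1.76 (edgeR adjusted p = 0.223) and the DNA sensor gene Aim2 0.35 (edgeR adjusted p = 0.335). Counts of Casp4 were low, at 12, 5 and 9 in naive replicates 1, 2 and 3. Its EAE replicate 1, at 0.292 CPM, lay inside the naive range.

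Several markers of other cell types also differed between the EAE libraries. The summed CPM of 5 monocyte markers was 11.3, 43.0 and 115 in EAE replicates 1, 2 and 3, against 5.92, 5.90 and 6.34 in naive replicates 1, 2 and 3, most of it from Lyz2. In treated EAE it was 15.6, 12.9 and 5.84. Of the 5 monocyte markers, 0 were called in EAE against naive, where edgeR called 0.987% of all tested genes. All 5 had log2 fold changes above 0 in that comparison, against 49.0% of all tested genes. The 6 microglial markers summed to 281, 301 and 334 CPM in treated EAE, 263, 509 and 330 CPM in EAE and 293, 303 and 248 CPM in naive. The 6 endothelial markers summed to 237, 251 and 358 CPM in treated EAE, 272, 383 and 314 CPM in EAE and 251, 248 and 247 CPM in naive. The 5 astrocyte markers summed to 1142 to 1283 CPM in treated EAE and 1142 to 1880 CPM in EAE. In naive they summed to 1037 to 1284 CPM. In EAE against naive 2 of the 5 were above 0 and 3 below. Gfap alone did not overlap, at 262, 628 and 402 CPM in EAE against 99.6 to 210 CPM in naive. EAE lay above naive without overlap in 12.2% of all tested genes. The log2 fold change of Gfap was 1.42 (edgeR adjusted p = 0.109). In treated EAE it was at 159 to 235 CPM, below all EAE libraries. In EAE replicate 1 the monocyte sum was above all naive libraries while the GTPase sum was below them. The part of these markers in the values of the GTPase genes was not tested.

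T cell markers had low levels. The 6 of them in the table summed to 4.54, 11.5 and 3.82 CPM in treated EAE and 10.2, 16.6 and 2.92 CPM in EAE. In naive they summed to 20.7, 5.21 and 2.38 CPM. Cd4 alone was between 0.591 and 19.0 CPM. It made up 19.0 of the 20.7 CPM in naive replicate 1, where the 4 striatal markers also had their highest sum, 955 CPM. Whether the Cd4 values come from T cells was not tested. Cd3e, Cd3d, Cd3g and Cd8a were at or below 0.485 CPM in every library, and the NK cell markers summed to at most 0.550 CPM, with Ncr1 at 0 in all 9. Of the neutrophil markers Ly6g was at 0 in all 9, and the 4 summed to at most 1.46 CPM. The choroid plexus markers were highest in EAE replicate 1, the EAE library where the GTPase genes were lowest, and their part in this was not tested.

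**Figure D5:**
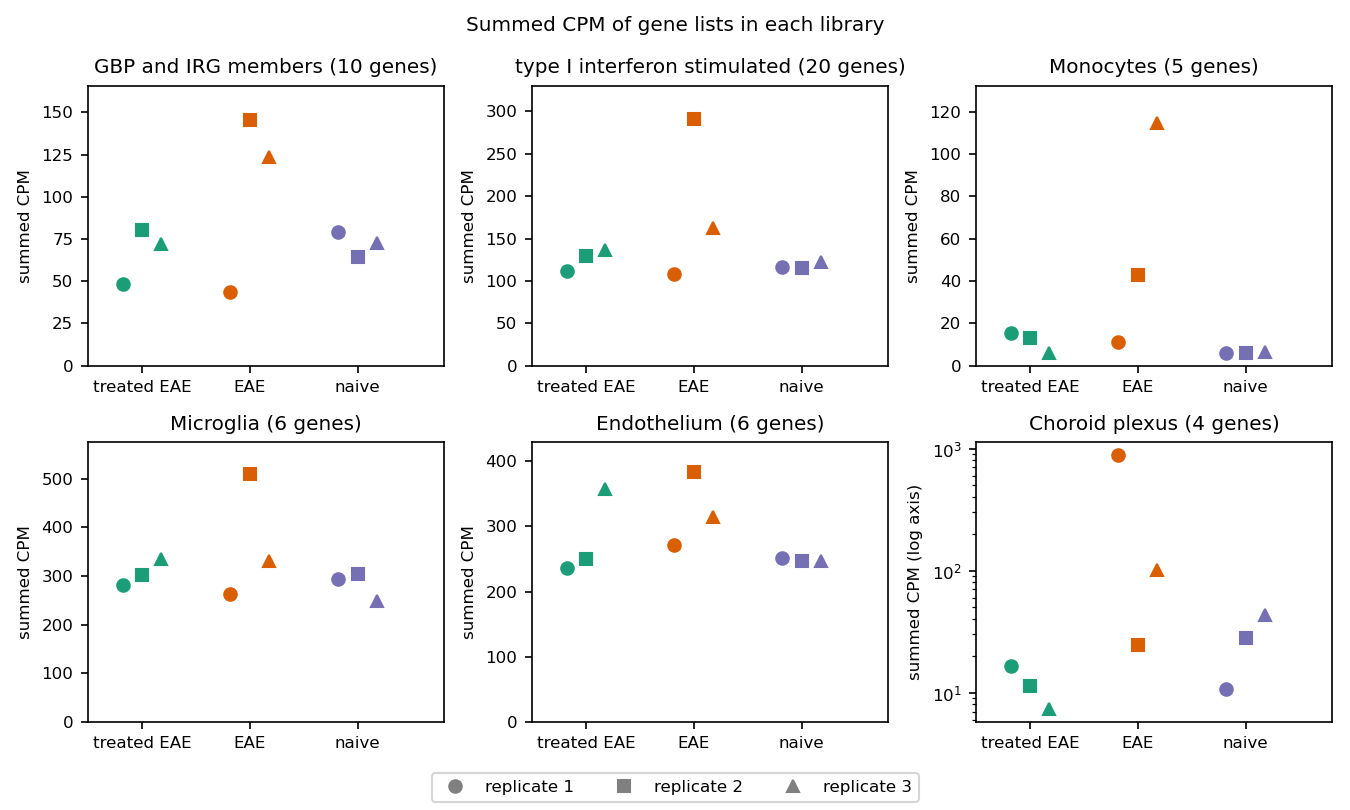
Summed CPM (y axis, a log axis for choroid plexus only) of the 10 GTPase genes and of 5 other lists in each library, for treated EAE, EAE and naive (x axis), with a symbol per replicate. EAE replicate 2 is the highest library for the GTPase, type I interferon, microglial and endothelial lists, EAE replicate 3 for monocyte markers and EAE replicate 1 for choroid plexus markers.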

How the data were processed

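The 9 samples are RNA-seq libraries of mouse cortex, 3 per group, made from oligo(dT)-selected mRNA per the labels' protocols. The series' design text names FastQC for read quality and fastp for trimming, and says that reads were mapped by Hisat2, and genes were quantified by bowtie2. Per the submitters' processing notes, FastQC was version 0.11.8 and the genome build mm10, which is GRCm38. The sources used here do not state the annotation, strand setting or counting options. The values the authors deposited are raw counts per gene symbol. Columns were matched to samples by title, and a further 9 columns that match no sample used here were left out. Counts of 2 were 3.80 to 4.43 times as frequent as counts of 1 in each library, as counting both mates of a pair would give, so that 1 fragment may have been counted more than once.

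One edgeR fit (version 4.0.16, R 4.3.3) took all 9 libraries, with group as the factor, TMM scaling, the filterByExpr filter, robust glmQLFit and glmQLFTest, which leaves 6 residual degrees of freedom. Adjusted p-values are Benjamini-Hochberg values over the 18644 genes left by the filter, called below 0.05. A standard error is the size of the log2 fold change over the root of its F. Correlations and the deviations from naive use log2 CPM with a prior count of 2. DESeq2 1.42.0, which the design text names for the authors' own comparisons, other scalings and filters, and fits without each library were alternatives. The labels number the mice of a group and say no more of how the samples were taken, so the p-values measure only the spread between these samples.

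The 10 genes, the lists and the naming rule were chosen with earlier results of these data known. The rule named all 10, up to 4 genes per pathway list with the smallest p in EAE against naive, and any called gene. It also named the 8 genes most like the set's mean profile, leaving out placeholder symbols from that choice. Among markers, Lyz2, Slc17a7, Gfap and Cd4 were named, and libraries were counted by rank, after their values were seen. Deviations from the group means of same-numbered libraries correlated at 0.175, 0.245 and 0.238 (numbers 1, 2 and 3) in treated EAE and EAE. For EAE and naive the correlations were 0.0545, 0.114 and 0.360, and for treated EAE and naive they were -0.246, -0.121 and 0.199. Libraries of different numbers were not compared, so these values cannot show whether equal numbers pair the samples.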

Additional observations from a re-analysis of the deposited data

How the results depend on the processing

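Of all genes, edgeR called 184 in EAE against naive and 41 in treated EAE against EAE. DESeq2 called 1041 and 688, and 3 in treated EAE against naive, with 2 of the GTPase genes in the first (Gbp6, Gbp4) and 1 in the second (Gbp6). With only the 6 libraries of the groups compared, 3 genes were called in treated EAE against EAE. With the replicate block on those 6 libraries, an alternative chosen after seeing the data, 4 were called. With the replicate block on all 9 libraries, 238 and 46 genes and 0 of the GTPase genes were called. The block changed no call on the GTPase genes. Leaving out each library in turn gave 2 (without naive replicate 1) to 261 genes (without treated replicate 3) in EAE against naive, and 4 (without treated replicate 3 or naive replicate 2) to 38 in treated EAE against EAE. In EAE against naive the count was 87, 34, 52, 7 and 19 without treated replicate 2, EAE replicates 2 and 3 and naive replicates 2 and 3. In treated EAE against EAE it was 20, 10, 6, 5, 14 and 14 without treated replicates 1 and 2, EAE replicates 2 and 3 and naive replicates 1 and 3. Leaving out a library gave 0 to 3 and 0 to 2 of the GTPase genes in these comparisons, above 0 only without EAE replicate 1.

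Directions near 0 turned. With the replicate block the log2 fold change was 0.012 for Gbp5 in treated EAE against EAE, and -0.024, -0.018 and -0.022 for Gbp2, Gbp7 and Igtp in treated EAE against naive. With the block on only the 6 libraries compared, it was 0.0022 for Gbp4 and 0.073 for Gbp5 in treated EAE against EAE. Gbp7 in treated EAE against naive was at -0.0026 without a low-count filter and at -0.0004 on 6 libraries. Over the fits without 1 library, values in EAE against naive ran from -0.36 to 0.56 (Gbp3), -0.37 to 0.36 (Gbp5) and -0.058 to 0.66 (Gbp7). In treated EAE against EAE they ran from -0.87 to 0.042 (Gbp3), -0.35 to 0.15 (Gbp4), -0.41 to 0.32 (Gbp5) and -0.66 to 0.057 (Gbp7). In treated EAE against naive they ran from -0.15 to 0.30 (Gbp2), -0.33 to 0.18 (Gbp5), -0.22 to 0.39 (Gbp6), -0.11 to 0.12 (Gbp7), -0.091 to 0.37 (Irgm1), -0.19 to 0.39 (Irgm2) and -0.23 to 0.34 (Igtp). The causes were not tested. Plain library totals moved no group mean CPM by as much as 1 SD. The longest transcript as length moved 14 of 30 group means per kilobase by more than that.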
